A study of Homo sapiens with 4 samples.

Results

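The genes described here are 10 epithelial serine proteases and serine protease inhibitors: the kallikreins KLK5, KLK6, KLK7, KLK8, KLK10 and KLK11, the membrane protease gene ST14, its Kunitz-type inhibitors SPINT1 and SPINT2, and the serpin gene SERPINB5. They were chosen by name with earlier results of these data known, and all 10 were among the 37810 gene names of the deposited value table. Cells of MCF10A, an immortalized breast epithelial line that does not form tumours, and of MDA-MB-231, a metastatic breast cancer line, were transfected with control siRNA or with siRNA against the forkhead transcription factor FOXF2 (20 nM each) for 48 h before RNA extraction. Each of the 4 combinations of line and siRNA was read on 1 Illumina BeadChip, so no group had a replicate and precision is limited by the number of arrays. The study was set up to find genes that FOXF2 regulates in normal and in metastatic breast epithelial cells. FOXF2 itself had intensities of 241 and 143 in MCF10A and 259 and 123 in MDA-MB-231, with control and FOXF2 siRNA respectively.

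Kallikreins are secreted trypsin- or chymotrypsin-like proteases encoded by neighbouring genes of 1 locus on chromosome 19. In stratified epithelia they are released as inactive precursors that activate one another, and they cleave adhesion proteins and protease-activated receptors. Matriptase, the ST14 product, is a protease anchored in the epithelial cell membrane, and the SPINT1 and SPINT2 products, known as HAI-1 and HAI-2, are membrane-bound inhibitors that hold it and the related protease prostasin in check. SERPINB5 encodes maspin, a serpin of mammary myoepithelial and basal cells that is best known as a candidate tumour suppressor and does not inhibit proteases by the classical serpin mechanism.

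The deposited values are linear intensities without background subtraction. The background of the arrays lay around 102 on all 4, with an SD of 8.13 to 8.27, and an intensity above the upper 1% of it (121 to 122) was called above background. By this limit 36.8% to 37.4% of all names were above background on an array. Of the 10 genes, SPINT2 was above background on all 4 arrays (26.3% of all names were), and SERPINB5, ST14 and SPINT1 were above it on both MCF10A arrays and on neither MDA-MB-231 array (1.91% of all names were). The 6 kallikreins lay at or near the background everywhere: KLK5, KLK6 and KLK8 were above the limit on none of the arrays, as were 45.1% of all names, while KLK7 and KLK10 passed it on 1 array each and KLK11 on 2. Of the epithelial markers, all 8 were above background in MCF10A. In MDA-MB-231 only KRT8, KRT18 and EPCAM (listed as TACSTD1) were, and CDH1, KRT5, KRT14, KRT17 and TP63 (listed as TP73L) were not. By the line test described below, 6 of them were higher in MCF10A and 1, KRT8 (334 and 417 against 772 and 961, log2 difference -1.44), was higher in MDA-MB-231. Their summed intensity was 20199 and 21435 in MCF10A and 1710 and 1926 in MDA-MB-231, most of it in MCF10A from KRT5 and KRT17. Of 7 mesenchymal markers 2 were higher in each line (list median -0.21). AXL and VIM were higher in MDA-MB-231, while SNAI2 (by 1.72) and CDH2 (981 and 1289 against 115 and 109) were higher in MCF10A. ZEB1 was above background in MDA-MB-231 alone (111 and 98.9 against 136 and 129), and its log2 difference of -0.94 was not called. SPARC was above background on all 4 arrays without a called difference, and FN1 on none. The summed intensity of these 7, 11233 and 10342 against 24482 and 17574, came mostly from VIM (7981 and 7247 against 19421 and 13731). Of 9 markers of fibroblasts, endothelium and blood cells, VWF, CDH5, PTPRC and HBB were at background on all arrays and 1 was higher in each line. The fibroblast marker DCN was at 333 with control and 853 with FOXF2 siRNA in MCF10A (log2 difference 1.63), against 96.1 and 102 in MDA-MB-231. The macrophage marker CD68 was at 338 and 316 against 853 and 1097, and PECAM1, of endothelium, was above background on all 4 arrays without a called difference. The summed intensity of these 9 was 1489 and 1958 in MCF10A and 1720 and 2065 in MDA-MB-231. The part of these marker differences in the results was not tested. In such bulk RNA, fewer cells that carry a transcript and less of it per cell cannot be told apart.

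**Figure D1:**
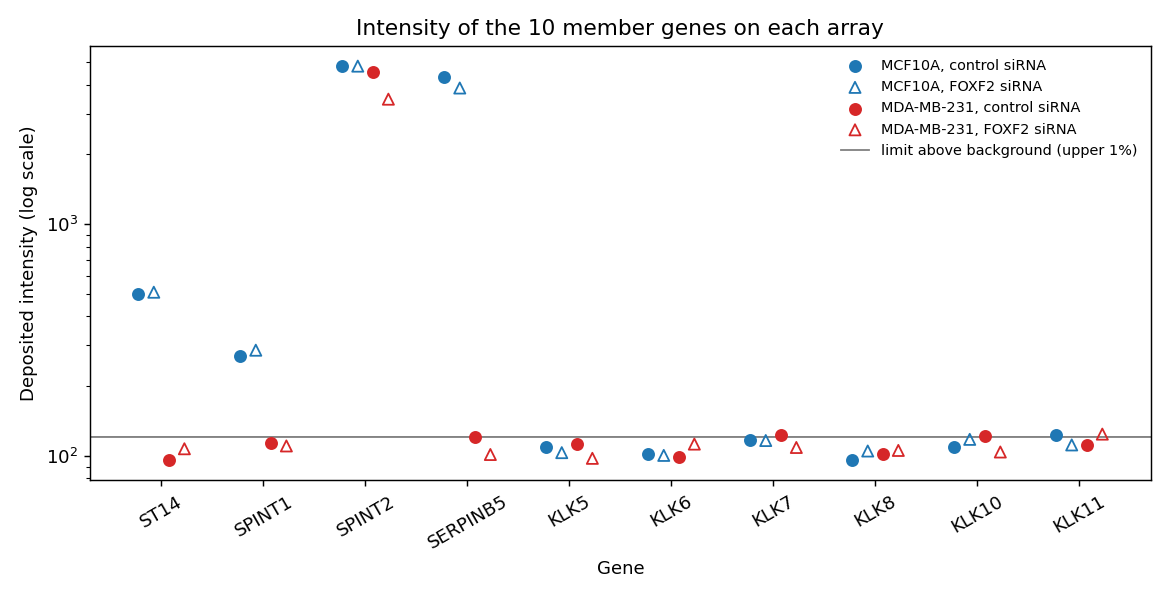
Deposited intensity (log axis) of the 10 genes on the 4 arrays. Filled circles are control siRNA, open triangles FOXF2 siRNA, blue MCF10A and red MDA-MB-231, and the grey line is the limit above background. SPINT2 is bright in both lines, SERPINB5, ST14 and SPINT1 are above the limit in MCF10A only, and the kallikreins cluster around the limit or below it.

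The lines were compared first. SERPINB5 had intensities of 4332 and 3867 on the MCF10A arrays with control and FOXF2 siRNA, and of 121 and 102 on the MDA-MB-231 arrays. The MCF10A values were among the brightest 2% of names and both MDA-MB-231 values were under the limit, so that the lines did not overlap. With the 4 arrays in 1 limma model of line and siRNA, on background-corrected log2 values, SERPINB5 averaged 11.97 in MCF10A and 4.79 in MDA-MB-231, a log2 difference of 7.18 (SE 0.23, adjusted p = 6.84e-202). As its MDA-MB-231 values are only upper limits, maspin mRNA was at least 115-fold higher in MCF10A on the corrected scale. Such bounds, here and for the genes that follow, hold on that scale and depend on the correction and its offset: the deposited intensities, which still contain the background, differed by a ratio of 37.0.

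ST14 was at 499 and 509 in MCF10A and at 95.8 and 107 in MDA-MB-231. Matriptase mRNA was thus of moderate brightness on both MCF10A arrays and at background in the cancer line. Its log2 means were 8.70 and 4.50, a difference of 4.21 (SE 0.31, limma adjusted p = 2.99e-39), or at least 11.9-fold higher in MCF10A on the corrected scale and 4.96-fold in deposited intensity. SPINT1, the gene of the matriptase inhibitor HAI-1, showed the same arrangement at a lower brightness, with 270 and 286 in MCF10A and 114 and 111 in MDA-MB-231. Its log2 means were 7.58 and 4.79, a difference of 2.79 (SE 0.35, limma adjusted p = 2.77e-14), or at least 5.47-fold higher on the corrected scale and 2.48-fold in deposited intensity. Levels of different genes are not compared, because their probes differ.

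SPINT2, encoding HAI-2, was bright on every array, at 4828 and 4806 in MCF10A and at 4545 and 3461 in MDA-MB-231. Its MCF10A values were above both MDA-MB-231 values, by a margin that was small against the control array of that line. The log2 difference was 0.29 (SE 0.18, 95% interval -0.07 to 0.65, limma adjusted p = 0.355) and did not pass the test. That interval lies below the 2-fold size used for calls. Its SE was taken wholly from genes of similar brightness, so it cannot exclude a 2-fold difference for SPINT2 itself. Of the 2 HAI genes, then, SPINT1 differed between the lines and SPINT2 was not shown to differ.

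In all, 3 of the 7 genes that could be tested (above background on at least 1 array, as were 54.9% of all names) were higher in MCF10A and none was lower, with thresholds of 0.05 on the adjusted p and of 1 on the log2 difference. Over all 20747 tested genes, 5.95% were higher in MCF10A and 5.75% lower by the same rule. The 7 genes include KLK7, KLK10 and KLK11, which entered through values just past the limit. SERPINB5, ST14 and SPINT1 entered through the MCF10A arrays alone, where they are high. The genes were also chosen with earlier results of these data known, so 3 of 7 is no test of the set against all genes. The median log2 difference of the 7 was 0.29, and that of all tested genes -0.03. These p-values rest on a spread that limma took wholly from genes of similar brightness (an infinite prior), with 1 residual degree of freedom and the 2 siRNA arrays of a line in place of replicates. With each gene's own spread no gene of the table passed, and the adjusted p values of SERPINB5, ST14 and SPINT1 were 0.469, 0.451 and 0.470, although all 3 had an unadjusted p under 0.05. Without background correction their log2 differences were smaller, at 5.21, 2.31 and 1.31, and still passed.

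Promoter sequences of 7 of the 10 genes were at hand in the RefSeq table (GRCh38.p14). Those of SERPINB5 and SPINT1 are printed because these genes were above background in 1 line and not in the other, and those of KLK5 and KLK6 because these neighbours were at background in both. Each is the 250 bases before the gene's start, 5' to 3', from chr18:63476708-63476957 on the plus strand (SERPINB5), chr15:40843798-40844047 on the plus strand (SPINT1), chr19:50953039-50953288 on the minus strand (KLK5) and chr19:50969592-50969841 on the minus strand (KLK6). Capitals mark the E-box CACCTG, the sequence bound by SNAIL and ZEB family repressors, or its reverse complement CAGGTG.
SERPINB5: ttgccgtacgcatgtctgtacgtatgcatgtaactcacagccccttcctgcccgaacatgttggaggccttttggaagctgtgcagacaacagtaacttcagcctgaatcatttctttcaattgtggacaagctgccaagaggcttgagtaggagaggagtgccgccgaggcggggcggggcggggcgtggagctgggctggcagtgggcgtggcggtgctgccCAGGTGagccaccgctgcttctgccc
SPINT1: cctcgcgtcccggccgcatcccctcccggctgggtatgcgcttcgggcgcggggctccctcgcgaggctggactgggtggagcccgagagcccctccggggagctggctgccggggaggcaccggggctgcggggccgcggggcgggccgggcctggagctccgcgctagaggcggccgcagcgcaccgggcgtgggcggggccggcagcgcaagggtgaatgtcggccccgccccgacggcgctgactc
KLK5: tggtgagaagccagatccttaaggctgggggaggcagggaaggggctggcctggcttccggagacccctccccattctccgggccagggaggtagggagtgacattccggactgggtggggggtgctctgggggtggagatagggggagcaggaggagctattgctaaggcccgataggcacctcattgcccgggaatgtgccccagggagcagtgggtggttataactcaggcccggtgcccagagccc
KLK6: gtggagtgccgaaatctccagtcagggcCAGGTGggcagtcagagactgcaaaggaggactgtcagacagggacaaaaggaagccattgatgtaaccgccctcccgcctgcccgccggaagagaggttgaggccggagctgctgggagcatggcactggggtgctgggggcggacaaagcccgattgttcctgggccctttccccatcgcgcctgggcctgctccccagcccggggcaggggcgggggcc

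The window of SERPINB5 held 1 such E-box and 13 CG dinucleotides, and that of KLK6 held 1 E-box and 12 CG dinucleotides. The KLK5 window had no E-box and 6 CG dinucleotides. The SPINT1 window had no E-box and 35 CG dinucleotides, more than most promoters (percentile 94.7), while a second SPINT1 entry with another start held 1 E-box and 22 CG dinucleotides. Among the genes not printed, KLK7 held 1 E-box in 1 of its 3 entries, KLK11 held 1 in 1 of its 2, and KLK10 held none. Over all 35116 promoter windows of this length the median was 11 CG dinucleotides, and 17.5% held the E-box on either strand. The forkhead core TGTTTAC or its reverse complement GTAAACA, which does not overlap the E-box, was present in 2.98% of all windows. It was in none of the windows of these 7 genes, which says only that these letters are not there.

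The kallikreins were then examined one by one. KLK5 and KLK7, the tryptic and chymotryptic kallikreins of skin desquamation, had intensities of 109, 103, 113 and 97.7 and of 117, 117, 123 and 109, each given for MCF10A and then MDA-MB-231, with control before FOXF2 siRNA. KLK6, a trypsin-like kallikrein also known from the nervous system, was at 102, 101, 98.6 and 113, and KLK8, known as neuropsin, at 95.8, 105, 102 and 106. None of these genes stood apart in either line. KLK10, first described as a gene of normal mammary epithelium that is lost in breast cancer lines, was at 110 and 118 in MCF10A and at 123 and 104 in MDA-MB-231. KLK11 was at 123 and 112 in MCF10A and at 112 and 124 in MDA-MB-231. For KLK10 and KLK11 as well, the lines overlapped. KLK7 and KLK10 passed the limit on the MDA-MB-231 control array only. KLK11 passed it on the MCF10A control array and on the MDA-MB-231 array with FOXF2 siRNA.

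The 24 kallikrein values ran from 95.8 to 124 with a median of 109. Of them 4 (16.7%) passed the upper 1% limit, below the 36.8% to 37.4% of all names, and 0 passed the upper 0.1% limit of 127 to 128. By definition 1% of background values pass the first limit, and the mean background was around 102. The kallikrein values as a group thus lay somewhat above the modelled background. The tested log2 differences between lines were 0.02 for KLK7, -0.02 for KLK10 and -0.04 for KLK11, with SEs of 0.57, 0.60 and 0.55 and limma adjusted p values of 0.986, 0.990 and 0.974. Their 95% intervals, such as -1.19 to 1.15 for KLK10, reach past a 2-fold difference in both directions, so that such a difference was not detectable at this brightness. Each kallikrein value summarizes 2 probes (3 for KLK5), and how the authors combined probes was not given in the sources used here. An intensity near background therefore does not show that no transcript was present.

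Of the other 9 kallikreins of the locus, 3 were above background on at least 1 array. KLK3, which encodes prostate-specific antigen, was at 93.3 and 111 in MCF10A and at 146 and 141 in MDA-MB-231, the reverse order of SERPINB5, ST14 and SPINT1. Its log2 difference of -1.30 (SE 0.50, limma adjusted p = 0.0490) was at least 1.62-fold on the corrected scale, and the deposited intensities differed 1.41-fold. The call was lost without background correction (log2 difference -0.50, adjusted p = 0.0560), with an offset of 50 (0.0725), with quantile normalization (0.0519), with the limit at the upper 0.1% (0.0876), without a filter on dim genes (0.0680), with robust estimation in limma (0.0554) and with each gene's own spread (0.543). KLK2 and KLK9 passed the limit on 1 array each, and KLK9 on the MDA-MB-231 control array (146) but not on the FOXF2 siRNA array (90.6).

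**Figure D2:**
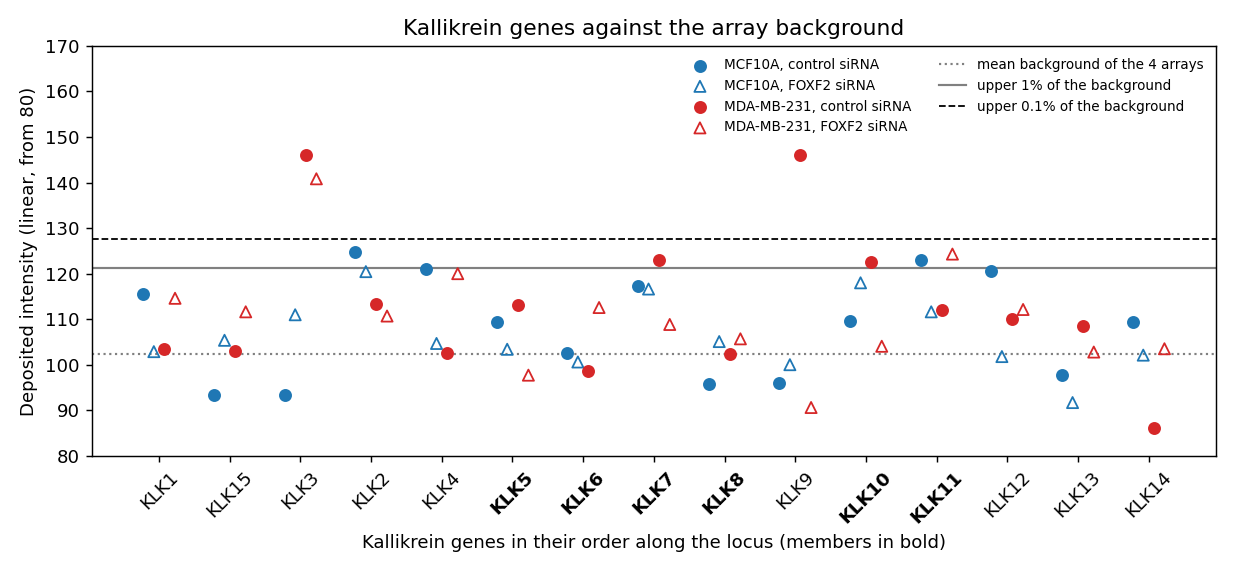
Deposited intensity (linear axis from 80) of the 15 kallikrein genes in their order along the locus, with the 6 genes described here in bold. Symbols are as on the plot of the 10 genes, and lines mark the mean background (dotted), its upper 1% (grey) and its upper 0.1% (dashed). Only KLK3 in MDA-MB-231 and KLK9 on 1 MDA-MB-231 array lie above the dashed line.

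Related inhibitors and proteases were described from lists. To be read beside the list counts, 54.9% of all names were above background on at least 1 array. Of all tested genes, 5.95% were higher in MCF10A and 5.75% lower. Genes above background in MCF10A alone entered the test through the arrays where they are high. The counts are thus no test of the lists. Among 12 other clade B serpins, 8 were above background on at least 1 array, and 3 of them were higher in MCF10A and none lower (list median 0.87). SERPINB8, an inhibitor of furin-like proteases, was at 512 and 374 in MCF10A and 270 and 179 in MDA-MB-231, a log2 difference of 1.42 (SE 0.25, limma adjusted p = 3.43e-07). SERPINB7 and SERPINB13, serpins of keratinocytes, were above background in MCF10A alone and at least 2.03-fold and 2.06-fold higher there on the corrected scale (deposited ratios of 1.51 and 1.56, limma adjusted p = 0.00488 and 0.00467). For all 3 the log2 difference fell under 1 without background correction, at 0.99, 0.59 and 0.64.

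Of 14 Kazal, WAP and cystatin inhibitors, 7 were above background on at least 1 array, and 3 were higher in MCF10A and none lower (list median 0.50). PI3, the elastase inhibitor elafin, was at 2166 and 1968 in MCF10A and 101 and 88.4 in MDA-MB-231, at least 56.6-fold higher in MCF10A on the corrected scale and 21.9-fold in deposited intensity. SLPI, the secretory leukocyte protease inhibitor, was at 1531 and 2210 against 113 and 99.6, at least 50.1-fold higher on the corrected scale and 17.3-fold in deposited intensity. CSTA, the cysteine protease inhibitor cystatin A, was at 262 and 279 against 110 and 122, a log2 difference of 2.59 (SE 0.34, limma adjusted p = 1.16e-12), the last value being just past the limit. Without background correction the log2 differences of PI3, SLPI and CSTA were 4.45, 4.11 and 1.23. SPINK5, the Kazal inhibitor of epidermal kallikreins, was at background on all 4 arrays, at 93.3 to 110.

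Among 16 other membrane-anchored serine proteases and their relatives, 8 were above background on at least 1 array, and 3 were higher in MCF10A and none lower (list median 0.38). PRSS8, encoding prostasin, which acts in 1 pathway with matriptase, was at 275 and 487 in MCF10A and at 102 and 108 in MDA-MB-231, at least 7.85-fold higher in MCF10A on the corrected scale (deposited ratio 3.48, limma adjusted p = 1.76e-24). TMPRSS3 was at 151 and 262 against 113 and 109, at least 3.04-fold higher on that scale (deposited ratio 1.79), and PRSS21, known as testisin, at 146 and 166 against 107 and 102, at least 1.96-fold higher (deposited ratio 1.49, limma adjusted p = 8.86e-06 and 0.00730). Without background correction the log2 differences of PRSS8, TMPRSS3 and PRSS21 were 1.80, 0.84 and 0.57.

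Of 17 substrates and receptors, 13 were above background on at least 1 array, 6 were higher in MCF10A and 1 was lower (list median 1.10). The epithelial sodium channel, which prostasin activates by cleavage, had its alpha subunit SCNN1A at 6304 and 7784 in MCF10A and 139 and 156 in MDA-MB-231, a log2 difference of 6.83 (SE 0.21, limma adjusted p = 1.04e-223). Its gamma subunit SCNN1G was at least 17.9-fold higher in MCF10A on the corrected scale and 6.67-fold in deposited intensity. EPCAM, an adhesion protein cleaved by matriptase, and LAMB1, a laminin chain, were higher by 2.68 and 3.55. The channel's beta subunit SCNN1B and CDCP1, a membrane glycoprotein, were higher by 1.17 and 1.10. Without background correction SCNN1B and CDCP1 fell under the size of 1 used for calls, at 0.52 and 0.70. Those of SCNN1A, SCNN1G, EPCAM and LAMB1 were then 5.57, 2.74, 1.98 and 2.71. F2RL1 was the exception: this gene of the protease-activated receptor PAR2, a target of matriptase and of trypsin-like kallikreins, was at 599 and 639 in MCF10A and 3796 and 3045 in MDA-MB-231, a difference of -2.64 (SE 0.19, limma adjusted p = 1.01e-39).

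**Figure D3:**
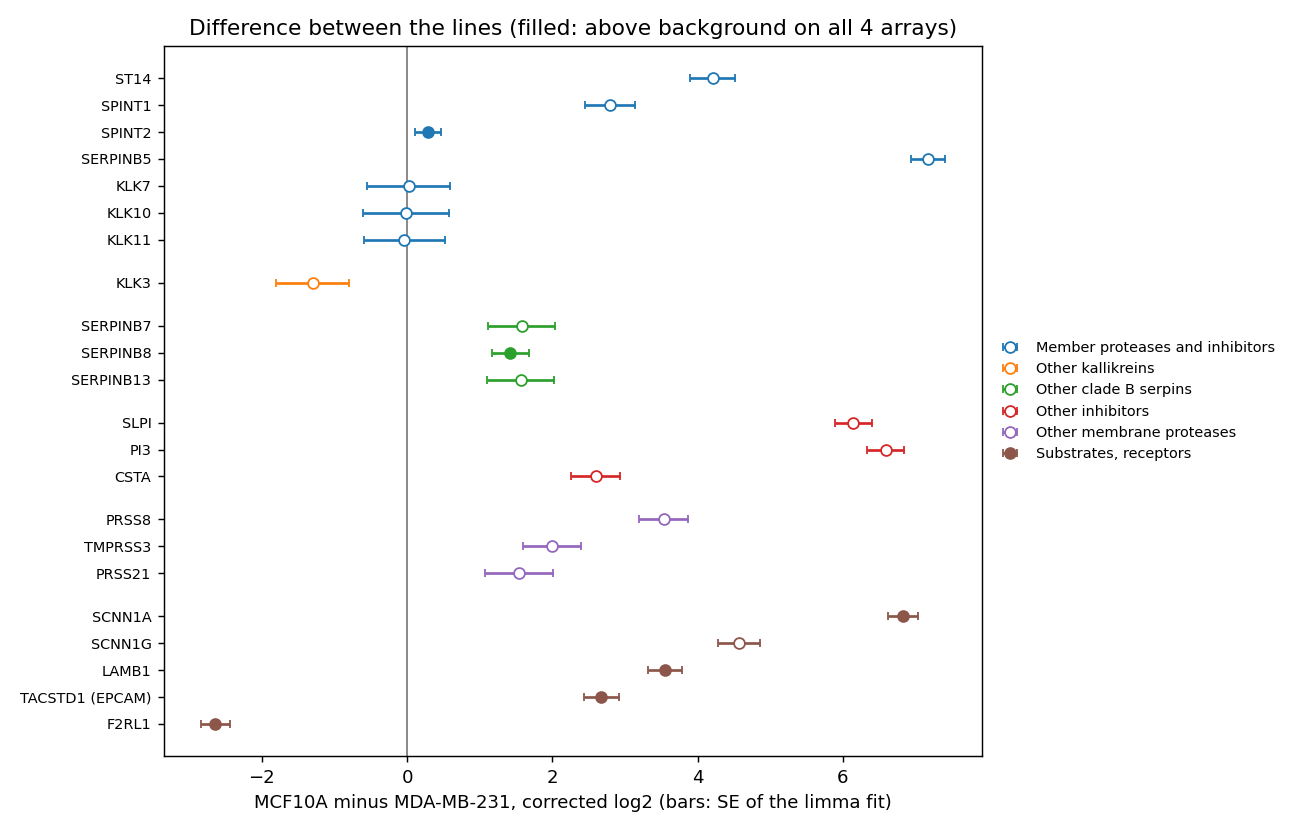
Difference between the lines (MCF10A minus MDA-MB-231, corrected log2) from the limma fit for the tested members and the named list genes, with bars of 1 SE. Filled points were above background on all 4 arrays, and open points rest in part on values at background. SERPINB5, ST14 and SPINT1 lie to the right at 7.18, 4.21 and 2.79, SPINT2 at 0.29 and the kallikreins around 0.

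FOXF2 siRNA was compared with control siRNA within each line, by a fixed size of 2-fold and without a test, as each arm is 1 array. Where just 1 of the 2 arrays was above background, the size counted was the bound against the lowest value above background, and where neither was, none was counted. By this rule none of the 10 genes reached 2-fold in either line. Over all genes above background on at least 1 array of a line, 1.7% were 2-fold higher and 1.14% 2-fold lower in MCF10A, and 1.2% and 1.38% in MDA-MB-231. In MCF10A, SERPINB5 differed by -0.17 (4332 to 3867), SPINT2 by -0.01 (4828 to 4806), ST14 by 0.04 (499 to 509) and SPINT1 by 0.12 (270 to 286) on the corrected log2 scale. The robust SD of such differences over genes above background on both MCF10A arrays was 0.25 at log2 values of 10 to 16, where SERPINB5 and SPINT2 lie, 0.32 at 8 to 10 (ST14) and 0.42 at 6 to 8 (SPINT1), so that all 4 differences were within it.

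In MDA-MB-231, SPINT2 was the single member above background on both arrays, and it was lower with FOXF2 siRNA by 0.40 on the log2 scale (4545 to 3461, a deposited ratio of 0.762). The robust SD at that brightness was 0.30. The difference of the SPINT2 responses, 0.40 between MCF10A and MDA-MB-231, has no residual degree of freedom and was not tested. The kallikrein values past the limit were matched by values at background with the other siRNA, and their bounds were 1.04-fold to 1.09-fold. Without the bound, KLK10 differed by -0.65 (123 to 104) and SERPINB5, at background on both arrays, by -0.64 (121 to 102).

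Averaged over both lines, none of the 7 tested genes passed limma's test of FOXF2 siRNA, and none had an unadjusted p under 0.05 in this or any other setting tried. Over all genes 0.217% passed, of which 27 (0.13%) rose and 18 (0.0868%) fell. The averaged log2 effects were -0.40 for SERPINB5 (95% interval -0.86 to 0.05), -0.20 for SPINT2 (-0.56 to 0.15), 0.15 for ST14 (-0.46 to 0.76) and 0.00 for SPINT1 (-0.68 to 0.68), with adjusted p values of 0.961 or more. For SERPINB5, ST14 and SPINT1 these include MDA-MB-231 values at background, so the MCF10A differences above are the measured ones.

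**Figure D4:**
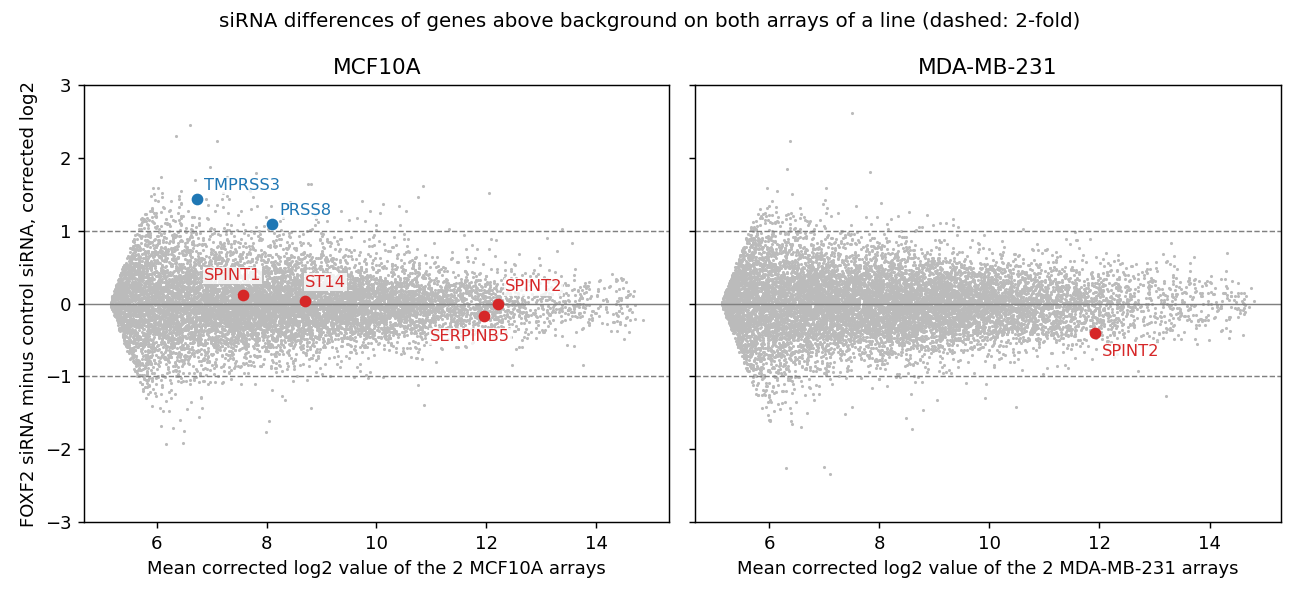
FOXF2 siRNA minus control siRNA (corrected log2) against the mean corrected log2 value of the arrays of a line, for genes above background on both arrays of that line (grey points). The members above background on both arrays are red, PRSS8 and TMPRSS3 are blue, and dashed lines mark 2-fold. The red points lie between -0.40 and 0.12, and both blue points lie above the upper dashed line.

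Among the related genes, 3 reached 2-fold with FOXF2 siRNA in MCF10A, all upward, and by the bound none did in MDA-MB-231. PRSS8 was higher by 1.09 (275 to 487), TMPRSS3 by 1.44 (151 to 262) and MST1, the gene of a growth factor precursor that matriptase can activate, by 1.10 (122 to 164). PRSS8 and TMPRSS3 were 2 of the 5 membrane proteases above background on an MCF10A array, and MST1 was 1 of 12 substrates and receptors. Of the 5 members, 1 other kallikrein, 7 clade B serpins and 6 Kazal, WAP and cystatin inhibitors above background there, none reached 2-fold. Over all genes above background there, 1.7% were 2-fold higher. The deposited intensities of PRSS8, TMPRSS3 and MST1 differed by smaller ratios, 1.77, 1.73 and 1.34. Without background correction none of the 3 reached 2-fold. MST1 was at the limit with control siRNA, and no replicate check exists for any of them. In MDA-MB-231, 4 related genes with 1 array at background differed by more than 1 on the log2 scale without the bound: KLK9 by -1.61 (146 to 90.6), SPINK2 by 1.52 (91.6 to 143), SPINK6 by -1.14 (138 to 104) and HGFAC by 1.10 (88.0 to 128). Their bounds were 1.71-fold, 1.63-fold, 1.47-fold and 1.18-fold. None of these genes passed limma's test averaged over the lines.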

How the data were processed

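Total RNA was labelled as biotinylated cRNA for Illumina arrays, per the labels' protocols. The deposited intensity values, 1 per gene name and array, were linear and already similar in distribution on the 4 arrays (medians of 111 to 112). How the authors normalized them or combined probes is not given in the sources used here. From a deposited table of 48797 probes only the gene names were used, to count probes, as its 8 columns of per-sample values match no sample's labels.

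For each array, the background was the mode of values below 140 (kernel density estimate, bandwidth 1.5), and its SD was taken from values under that mode. Intensities were corrected by limma's normexp, 16 was added and log2 taken. Genes above background on at least 1 array (20747) were fitted in limma 3.58.1 (R 4.3.3; line and siRNA, eBayes with a trend, Benjamini-Hochberg adjustment). Bounds use the lowest value above background on the dim array. The procedure was tested on simulated data with the same noise setting for every gene and no line-specific siRNA responses. That simulation therefore cannot show whether the pooled spread behind the p-values holds for real genes. As the labels mention no separate cultures, p-values measure just the spread between these arrays, pooled over genes of similar brightness. In this additive fit, siRNA responses that differ between the lines count as part of that spread. Slide and scan effects were not tested.

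The members, lists and tests were chosen with earlier results of these data known. From each list, up to 5 genes passing between lines, by size, and those reaching 2-fold within a line were named. SPINK5, SPINK2, SPINK6, HGFAC, KLK2, KLK9, SCNN1B and CDCP1 were added after their values were seen. So were the marker genes given with values. EPCAM and TP63 were matched through older names.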

Additional observations from a re-analysis of the deposited data

How the results depend on the processing

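The calls of SERPINB5, ST14 and SPINT1 between lines held under all tested alternatives except each gene's own spread in limma, where 0 members passed. Under that setting 0 genes were higher and 0 lower in MCF10A and 0 passed for siRNA (2173 and 942 had an unadjusted p under 0.05). Without a trend 0 genes passed for siRNA (986 unadjusted). For all genes between lines, 658 were higher and 568 lower in MCF10A without background correction, and 415 and 376 at a log2 difference of 2, against 1235 and 1193. Genes 2-fold higher and lower in MCF10A, 282 and 188, became 34 and 9 without background correction, 77 and 27 with an offset of 50, 904 and 853 without a filter on dim genes, and 1330 and 1129 at 1.5-fold. In MDA-MB-231, 201 and 232 became 7 and 12, 34 and 35, 844 and 926, and 1226 and 1252. With the limit at the upper 5%, 321 were lower in MCF10A, and 321 higher and 365 lower in MDA-MB-231; at the upper 0.1%, 123 were lower in MCF10A and 124 higher in MDA-MB-231. With bounds where 1 array was at background, no member with a counted size reached 1.5-fold with FOXF2 siRNA in either line. Members at background on both arrays of a line had none, and kallikreins just past the limit could not reach it. The log2 difference between lines ranged from 5.21 to 7.41 for SERPINB5, 2.31 to 4.32 for ST14, 1.31 to 2.91 for SPINT1 and 0.09 to 0.48 for SPINT2; the lowest of the first 3 came without background correction, and those of SPINT2 from the arrays of 1 siRNA alone. Apart from constructions that test fewer or other genes, the cause was not tested. No paired analysis was possible because the labels give no replicate numbers and each group held 1 array; the limma fit itself compares the siRNAs within lines. Signal over background limits what can be said of the kallikreins.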

Other observations

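Of the 7 members and the related genes tested, SERPINB8, SCNN1B and CDCP1 had an unadjusted p under 0.05 for FOXF2 siRNA averaged over lines. None passed limma's adjustment over all genes. They were 1 of 8 tested clade B serpins and 2 of 13 substrates and receptors. Of the 7 members, 3 other kallikreins, 7 Kazal, WAP and cystatin inhibitors and 8 membrane proteases tested, 0 had such a p. Over all 20747 tested genes, 1130 did. SERPINB8 was lower in both lines, by -0.57 (512 to 374) in MCF10A and -0.98 (270 to 179) in MDA-MB-231 on the log2 scale (adjusted p = 0.295). SCNN1B, the beta subunit of the epithelial sodium channel, was higher in both, by 0.85 (162 to 223) and 0.94 (118 to 149, the first value at background; adjusted p = 0.582). CDCP1, a membrane glycoprotein cleaved by matriptase, was lower in both, by -0.44 (351 to 281) and -0.71 (222 to 169; adjusted p = 0.832).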
